A study of Mus musculus with 2 samples.

Results

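Clusters 2 and 4 of the smooth muscle cell (SMC) class were sets of aortic cells with a high share of Malat1 or of ribosomal RNA-like transcripts. They were taken as all cells that the authors' deposited table places in the SMC class with cluster number 2 or 4, each barcode counted once. They held 1327 of the 5943 SMC cells and of the 7917 cells in all, with 795 cells in cluster 2 and 532 in cluster 4. A further 3 cells of these clusters carried another class name and were not used.

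The cells came from enzymatically digested aortas of mice on a western diet for 12 weeks. One library (DKO) came from mice with an inducible double gene deletion in endothelial cells, labelled EC-iDKO, made in Apoe-deficient mice. The other (Apoe KO) came from mice that lacked Apoe alone. Every cell therefore lacked Apoe, a carrier of lipoprotein remnants whose loss gives atherosclerosis on this diet, and smooth muscle was not the target of the further deletion. In this line the endothelial genes removed are known to be Epn1 and Epn2, which code for the endocytic adaptors called epsins. Neither its Cre driver nor the number of mice per library is stated in the labels. Capture was by 10x 3′ tags, and the protocol names CD31 microbeads, an endothelial selection, whereas the cells are labelled as all cells.

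Vascular smooth muscle cells hold the vessel wall's contractile proteins and can turn, in atherosclerosis, toward matrix-making or inflammatory states. Single-cell libraries also catch transcripts that stay in the nucleus, such as the long non-coding RNA Malat1 of the nuclear speckles, next to cytoplasmic messages such as those of the ribosome and mitochondria. Carmn is a long non-coding RNA of contractile smooth muscle, Pnisr a nuclear protein linked to splicing, mt-Nd6 a subunit of respiratory complex I read from the light strand of mitochondrial DNA, and Gm42418 a predicted gene that collects ribosomal RNA-like reads.

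The sequences shown are a stretch of Malat1, high in cluster 2, and the promoters of Socs3 and Zfp36, both low in cluster 4. No result below rests on them. Malat1 lies at chr19:5795690-5802672 on the minus strand of GRCm38, and the stretch at chr19:5795958-5796029, which covers bases 6644 to 6715 of its 6983-base transcript, holds a run of 12 A, shown in capitals, 298 bases before the annotated end. It is shown because the libraries were primed on poly-A. Where in the gene the reads fell is not known from these counts.

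Malat1: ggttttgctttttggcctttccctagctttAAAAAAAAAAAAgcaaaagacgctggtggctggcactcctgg

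Socs3, an inhibitor of cytokine receptor signalling through STAT factors, and Zfp36, which destabilises cytokine messages, were among the lowest genes of cluster 4. The 180 bases before the RefSeq start of each gene (GRCm38.p6) are given below from chr11:117969367-117969546 for Socs3 and chr7:28379229-28379408 for Zfp36, both on the minus strand. The motif TTCNNNGAA, which STAT factors are known to bind, is in capitals 154 bases before the start of Socs3 and 17 bases before that of Zfp36. A CArG box, the motif of serum response factor, is in capitals 58 bases before the start of Zfp36.

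Socs3: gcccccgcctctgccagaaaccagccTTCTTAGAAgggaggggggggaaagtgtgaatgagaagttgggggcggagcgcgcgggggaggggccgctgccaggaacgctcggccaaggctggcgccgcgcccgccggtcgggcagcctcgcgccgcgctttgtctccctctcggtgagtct

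Zfp36: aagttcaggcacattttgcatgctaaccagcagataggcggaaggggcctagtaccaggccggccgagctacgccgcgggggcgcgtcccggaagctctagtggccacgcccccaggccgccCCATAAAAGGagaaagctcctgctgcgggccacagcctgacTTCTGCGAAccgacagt

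Both motifs and the cyclic AMP element TGACGTCA read alike on either strand. In 32851 RefSeq promoters of 300 bases, TTCNNNGAA was found in 8.30%, the CArG box in 1.63% and TGACGTCA in 1.79%. Of the 17 genes made up of the immediate early list and Socs3, 14 had a promoter in the table. Among those 14, TTCNNNGAA stood in 2 (Socs3 and Zfp36), the CArG box in 1 (Zfp36) and TGACGTCA in 2 (Btg2 and Dusp1). These matches describe letters in a window and not binding.

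Each genotype had 1 library, so that every value below describes these 2 libraries. The DKO library held 6853185 UMIs (unique molecular identifiers, the count of captured molecules), a median of 769 in each cell, and the Apoe KO library 13304762, a median of 3770. Clusters were assigned by the authors on these same counts, so gene differences between clusters describe the clustering and test nothing. The libraries shared 5 cell barcodes, of which 1 belonged to a cell of these clusters. Doublets were neither called nor removed here.

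Cluster 2 made up 15.1% (exact binomial 95% interval 14.1 to 16.2) of the 4407 SMC cells of the DKO library and 8.40% (7.06 to 9.90) of the 1536 of the Apoe KO library. Cluster 4 made up 8.08% (7.29 to 8.92) in the DKO library and 11.5% (9.91 to 13.2) in the Apoe KO library. Among the DKO cells with at least 1000 UMIs, the share was 10.5% for cluster 2 and 3.28% for cluster 4. These shares depend on the genes that formed the clusters, and no comparison of sizes was made between genotypes. All intervals here cover counting error only.

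Both clusters were shallower than the rest of their class. In the DKO library the median cell had 726.5 UMIs in cluster 2 and 656 in cluster 4, against 807 in the other SMC cells. In the Apoe KO library it had 2230 UMIs in cluster 2 and 2254 in cluster 4, against 5917 in the other SMC cells. The gap was thus wide in the Apoe KO library and narrow in the DKO library. Neither cluster was the shallowest of its class, since the median of SMC cluster 0 was 637 UMIs in the DKO library and 1750 in the Apoe KO library. When each cell was thinned to 500 UMIs, the median cell held 346 genes in cluster 2, 351 in cluster 4 and 353 in the other SMC cells of the DKO library. In the Apoe KO library the thinned medians were 352 genes in cluster 2, 359.5 in cluster 4 and 356 in the other SMC cells, so at 1 fixed depth the number of genes per cell was close among them.

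The mitochondrial share of UMIs did not follow a single direction. In the DKO library its median was 3.21% in cluster 2, the lowest of the 13 SMC clusters with at least 50 cells, and 3.65% in cluster 4, rank 12, against 4.37% in the other SMC cells. In the Apoe KO library it was 4.37% in cluster 2, rank 8 of 11 clusters, and 6.14% in cluster 4, rank 2 after the 6.93% of cluster 0, against 4.74% in the other SMC cells. Cells with at least 10% mitochondrial UMIs were 24.0% of cluster 2 and 26.1% of cluster 4 in the Apoe KO library, against 14.3% of the other SMC cells. In the DKO library they were 6.31% of cluster 2 and 2.53% of cluster 4, against 6.41% of the other SMC cells.

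Malat1 set cluster 2 apart cell by cell. It made up 7.84% of the UMIs of the median cluster 2 cell in the DKO library and 9.11% in the Apoe KO library, the highest of the ranked SMC clusters in both. The median of the other SMC cells was 2.38% in the DKO library and 3.74% in the Apoe KO library. Of the other SMC cells, 2.16% in the DKO and 7.56% in the Apoe KO library were at or above the cluster 2 median. In cluster 4 the median Malat1 share was 4.03% in the DKO library, rank 2 of 13 clusters, but 3.52% in the Apoe KO library, rank 7 of 11, where 55.6% of the other SMC cells reached it. A high Malat1 share therefore described cluster 2 in both libraries and cluster 4 in the DKO library, while in the Apoe KO library cluster 4 was not a Malat1-rich cluster. High Malat1 was also not limited to these clusters, since SMC cluster 18, too small to rank with 27 cells in the DKO and 35 in the Apoe KO library, had medians of 13.8% in the DKO and 11.6% in the Apoe KO library.

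Gm42418 had its highest median share in cluster 4 among the ranked SMC clusters. Its excess over the other SMC cells shrank when those were weighted to the depth of cluster 4, as given below. Its median share was 3.42% of UMIs in cluster 4, 2.75% in cluster 2 and 2.13% in the other SMC cells of the DKO library. In the Apoe KO library it was 1.16% in cluster 4, 0.818% in cluster 2 and 0.292% in the other SMC cells. Cluster 4 had rank 1 and cluster 2 rank 3 in both libraries. The ranges overlapped, as 16.2% of the other SMC cells of the DKO library and 7.15% of those of the Apoe KO library were at or above the cluster 4 median.

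**Figure D1:**
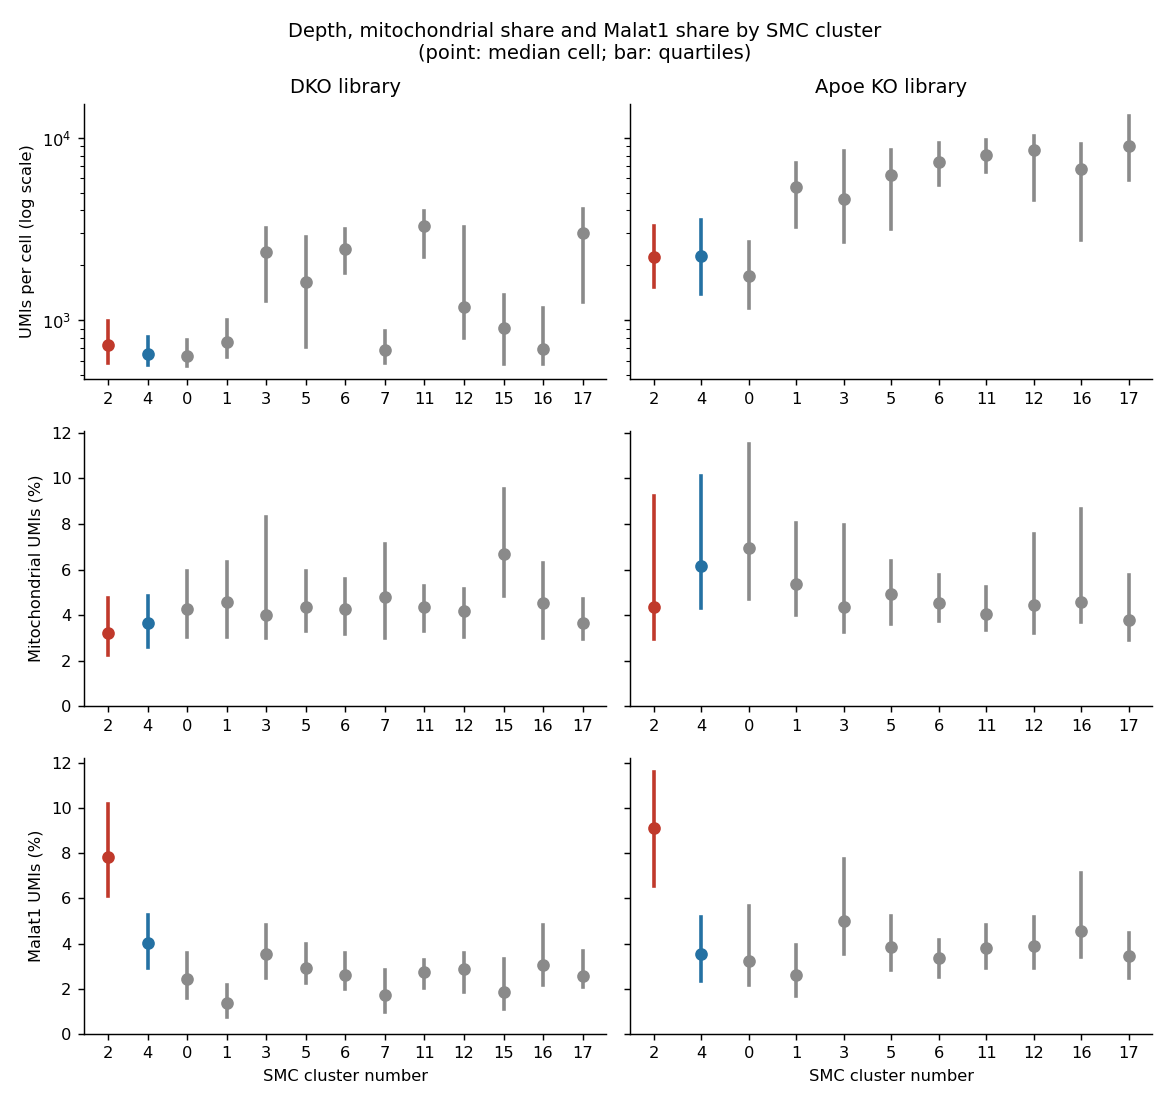
Medians (points) and quartiles (bars) of UMIs per cell (log axis), of the mitochondrial share and of the Malat1 share of UMIs in percent, for each SMC cluster with at least 50 cells, DKO library left and Apoe KO library right. Cluster 2 tops the Malat1 share in both libraries (7.84% in DKO and 9.11% in Apoe KO).

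Summed over cells and scaled to 1000000 UMIs (CPM), the 5 given markers ranked differently in the 2 clusters. Malat1 stood at 80641 CPM in cluster 2 of the DKO library and 91639 CPM in that of the Apoe KO library, against 17817 to 35759 CPM in the 11 other SMC clusters of the DKO library and 28449 to 49215 CPM in the 9 of the Apoe KO library. No other ranked cluster reached its level. mt-Nd6 was likewise highest in cluster 2, with 126 CPM in the DKO library, against 14.5 to 70.3 CPM in the other clusters, and 102 CPM in the Apoe KO library, against 1.19 to 28.9 CPM. Pnisr was highest in cluster 4, with 136 CPM in the DKO library, against 51.4 to 126 CPM in the other clusters, and 163 CPM in the Apoe KO library, against 63.1 to 140 CPM. Carmn was highest in cluster 4 of the Apoe KO library at 76.2 CPM, and in the DKO library the 110 CPM of cluster 4 came second to the 114 CPM of SMC cluster 6. The set of 5 therefore splits, with Malat1 and mt-Nd6 leading in cluster 2 and Gm42418 and Pnisr in cluster 4. Carmn led in cluster 4 of the Apoe KO library alone. In cluster 4 of the DKO library Pnisr rested on 37 UMIs and Carmn on 30.

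**Figure D2:**
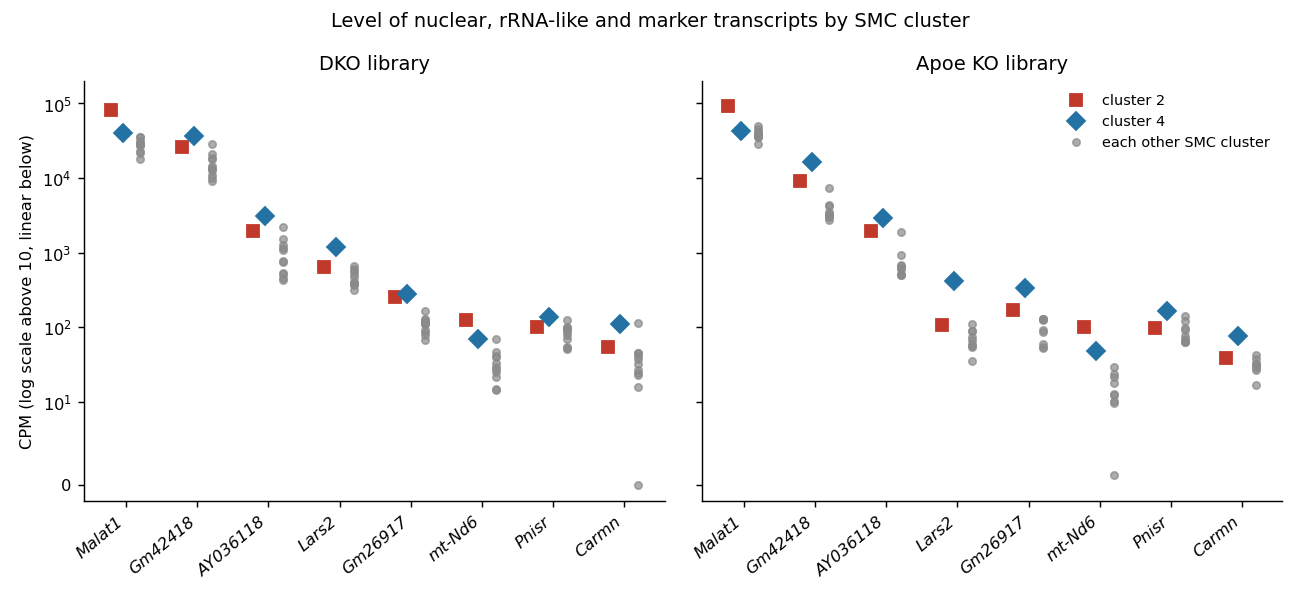
CPM of summed UMIs (log scale above 10 CPM, linear below) of the 5 markers and of AY036118, Lars2 and Gm26917, in cluster 2, cluster 4 and each other SMC cluster, DKO library left and Apoe KO library right. Cluster 2 is the highest for Malat1 and mt-Nd6, and cluster 4 the highest for Gm42418 and Pnisr, in both libraries.

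The genes deleted in endothelium were measured here in cells that were not their target, and 3′ tags do not read an upstream deleted exon. In cluster 2, Epn1 had 34.1 CPM in DKO cells and 38.2 CPM in Apoe KO cells, and Epn2 had 113 CPM in DKO cells and 99.2 CPM in Apoe KO cells. In cluster 4, Epn1 had 22.1 CPM in DKO cells and 24.7 CPM in Apoe KO cells, and Epn2 had 110 CPM in DKO cells and 72.1 CPM in Apoe KO cells.

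The cells of both clusters were chosen by their deposited SMC label, so smooth muscle markers in them are no independent evidence of identity. None of the 7 smooth muscle markers was at 0, and Acta2, smooth muscle actin, was among the 3 highest genes of each cluster. The summed markers were 42718 CPM in cluster 2 and 49415 CPM in cluster 4 of the DKO library, against 49751 CPM in the other SMC cells. In the Apoe KO library they were 36781 CPM in cluster 2 and 40336 CPM in cluster 4, against 48028 CPM.

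Cluster 2 had more of Malat1 and mt-Nd6 than the other SMC cells of the same library, and in Apoe KO less of the short messages of the ribosome and respiratory chain. mt-Nd6 was 4.00-fold higher (exact conditional binomial 95% interval 2.98 to 5.32) in DKO and 6.97-fold higher (4.73 to 10.1) in Apoe KO. Malat1 was 2.82-fold (2.79 to 2.85) higher in DKO and 2.29-fold (2.26 to 2.31) in Apoe KO. A gene was called higher or lower when its CPM ratio passed 1.5-fold either way with at least 100 UMIs over both sides. In DKO 241 genes (3.95%) were called higher in cluster 2 and 469 (7.69%) lower, which is 11.6% of the 6096 tested. In Apoe KO 868 (11.9%) were higher and 1149 (15.7%) lower, 27.6% of 7317. Of 6012 genes tested in both libraries, 68 (1.13%) were higher in both, 110 (1.83%) were lower in both, and 50 went opposite ways.

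After Malat1 and mt-Nd6, the genes that ranked highest in cluster 2 were of mixed function. Sfrp2, a secreted modulator of Wnt signalling, had 92.1 CPM in cluster 2 and 43.0 CPM in the other SMC cells of DKO (2.14-fold, 1.55 to 2.90), and 89.0 CPM in cluster 2 and 37.7 CPM in the others of Apoe KO (2.36-fold, 1.61 to 3.36). Ece1, which activates endothelin, had 69.9 CPM in cluster 2 and 39.6 CPM in the others of DKO (1.76-fold), and 73.8 CPM in cluster 2 and 39.8 CPM in the others of Apoe KO (1.85-fold). Syn3, a synapsin, was 1.97-fold higher in DKO and 2.68-fold in Apoe KO. The gene Timp3 lies within Syn3 on the opposite strand and was 1.07-fold higher in DKO and 1.24-fold in Apoe KO, so that reads of the pair cannot be told apart where strand was not used. The other genes of the highest 12 were AY036118, Ap3m1, Ccdc141, Zbtb11, Fer, Sync and Fam13b, with ratios between 1.66 (Sync, Apoe KO) and 2.82 (AY036118, Apoe KO). Zbtb11 is a zinc finger factor, Fer a tyrosine kinase and Ap3m1 an adaptor subunit of vesicle traffic. Sfrp2, Ap3m1, Sync and Zbtb11 also overlap a gene of the opposite strand.

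Among the lowest genes of cluster 2, 4 belong to the mitochondrial machinery. Uqcr10, a small subunit of respiratory complex III, had 118 CPM in cluster 2 and 197 CPM in the other SMC cells of DKO (0.598-fold), and 170 CPM in cluster 2 and 319 CPM in the others of Apoe KO (0.534-fold). Of the ATP synthase subunits, Atp5e was 0.551-fold in DKO and 0.525-fold in Apoe KO, and Atp5k 0.544-fold in DKO and 0.525-fold in Apoe KO. Mrps18c of the mitochondrial ribosome was 0.483-fold in DKO and 0.518-fold in Apoe KO. Fcgrt and Naa38 lay between 0.530-fold and 0.575-fold in both libraries. Fabp4, a fatty acid binding protein of fat and endothelium, had 183 CPM in cluster 2 and 583 CPM in the others of DKO (0.313-fold), and 86.5 CPM in cluster 2 and 177 CPM in the others of Apoe KO (0.487-fold). Its place in DKO rested on SMC cluster 15, which carried adipocyte markers. Without that cluster the log2 ratio of Fabp4 in DKO was -0.45, no longer past 1.5-fold.

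Members of the gene lists were counted past 1.5-fold from 20 UMIs upward. By that rule 9.46% of 10319 genes were higher in cluster 2 of DKO and 13.2% lower, and in Apoe KO 18.4% of 10999 were higher and 16.6% lower. The shares of all genes, here and below, are without depth weighting or thinning. List counts under those settings are therefore not set against all genes. Of the 13 nuclear long non-coding RNAs measured in Apoe KO, 6 were higher and none lower, with a median log2 ratio of 0.53, beside 0.02 over all genes. They included Neat1, the scaffold of paraspeckles, at 1381 CPM in cluster 2 and 636 CPM in the other SMC cells (2.17-fold, 1.98 to 2.37), and the imprinted antisense RNA Kcnq1ot1 at 254 CPM in cluster 2 and 94.3 CPM in the others (2.70-fold, 2.17 to 3.33). Mirg (0.717 to 8.04, on 4 UMIs in cluster 2) and Snhg14 (0.935 to 4.68, on 8 UMIs) were also among the higher ones, with 1 inside their intervals. In DKO the list median was 0.31, beside -0.03 over all genes, and Malat1 alone of 12 measured members passed the fold. Neat1 there had 1312 CPM in cluster 2 and 876 CPM in the others, a log2 ratio of 0.58, just short of 1.5-fold. With the other SMC cells weighted to the depth of cluster 2, Neat1 was 1.37-fold and Dleu2 1.04-fold in Apoe KO, both under the fold, and Kcnq1ot1 1.97-fold, with a list median of 0.20 and 5 of 13 higher. In DKO that weighting left Malat1, Neat1 (1.61-fold) and Kcnq1ot1 (1.55-fold) higher and 2 of the 12 lower.

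Ribosomal protein genes of cluster 2 had a median log2 ratio of -0.39 in DKO, where 3 of 79 were past 1.5-fold lower, and of -0.71 in Apoe KO, where 63 of 79 were. Their summed level in DKO was 65052 CPM in cluster 2 and 84440 CPM in the other SMC cells, and in Apoe KO 55878 CPM in cluster 2 and 90736 CPM in the others. The lower level in DKO was thus a small shift shared by many genes, with fewer past the fold than the 13.2% of all genes. Nuclear-coded genes of oxidative phosphorylation had medians of -0.33 in DKO (10 of 75 lower) and -0.67 in Apoe KO (47 of 76 lower), and no member of either list was past 1.5-fold higher. In DKO the share of respiratory genes past the fold was near the 13.2% of all genes. With depth weighting 12 of 79 ribosomal protein genes and 24 of 76 respiratory genes were lower in Apoe KO. Without weighting 16.6% of all genes were lower there, and the share with weighting is not given here. The 12 heavy-strand mitochondrial genes had medians of -0.16 in DKO and 0.33 in Apoe KO with none past 1.5-fold, and with the other SMC cells weighted to the depth of cluster 2 the median in Apoe KO turned to -0.15. Splicing genes had medians of 0.22 in DKO and 0.11 in Apoe KO, with 2 of 37 higher in DKO (Luc7l and Rbm6) and, in Apoe KO, 1 higher (Clk1) and 1 lower (Luc7l3), fewer than among all genes. Thinning each cell to 500 UMIs ended the calls of Rbm6 (log2 0.54), Clk1 (log2 0.52) and Luc7l3 (log2 0.08).

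Contractile genes of cluster 2 had medians near 0, at 0.03 in DKO with none of 18 past the fold and -0.20 in Apoe KO with 4 lower. Acta2 had 19098 CPM in cluster 2 and 23440 CPM in the other SMC cells of DKO, and 16645 CPM in cluster 2 and 23920 CPM in the others of Apoe KO. The smooth muscle myosin heavy chain Myh11 went the other way by a small amount, with 6870 CPM in cluster 2 and 6027 CPM in the others of DKO, and 7347 CPM in cluster 2 and 6192 CPM in the others of Apoe KO. The 4 lower genes of Apoe KO were Des, Myl9, Tpm2 and Myl6, which code for desmin, a pair of myosin light chains and a tropomyosin. With depth weighting none of the 18 was past the fold. In that library 7 of 13 markers of modulated smooth muscle were higher, among them the proteoglycan Lum at 267 CPM in cluster 2 and 76.0 CPM in the others (3.52-fold, 2.83 to 4.33) and osteopontin, Spp1, at 229 CPM in cluster 2 and 72.2 CPM in the others (3.17-fold, 2.51 to 3.97). In DKO Lum had 37.5 CPM in cluster 2 and 12.7 CPM in the others (2.95-fold, 1.72 to 4.88), and Spp1 30.7 CPM in cluster 2 and 21.8 CPM in the others (1.41-fold, 0.802 to 2.33). Of 14 modulated markers measured in DKO, 3 were higher (Lum, Dcn and Tnfrsf11b) and 2 lower (Lgals3 at 0.604-fold and Ly6a at 0.350-fold, the second on 2 UMIs in cluster 2). With depth weighting Lum came to 1.94-fold in DKO and 1.97-fold in Apoe KO, and Spp1 to 1.64-fold in Apoe KO. That weighting ended the calls of Dcn (1.02-fold in DKO and 1.19-fold in Apoe KO) and Tnfrsf11b (1.39-fold in DKO and 1.42-fold in Apoe KO), and left 1 of 14 higher in DKO and 4 of 13 in Apoe KO. Thinned to 500 UMIs, Lum was 1.57-fold in DKO and 1.74-fold in Apoe KO, Spp1 was 1.36-fold in Apoe KO, and 2 of 11 markers were higher there.

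Without depth weighting, summed macrophage and fibroblast markers were higher in cluster 2 in both libraries, and cycling markers in Apoe KO. In Apoe KO the 10 macrophage markers summed to 343 CPM in cluster 2 and 129 CPM in the other SMC cells, with 7 of 8 measured markers higher and 1 of the 10 at 0. The 7 fibroblast markers there, which include Lum and Dcn, summed to 534 CPM in cluster 2 and 219 CPM in the others, with 2 at 0. In DKO macrophage markers summed to 29.0 CPM in cluster 2 and 14.2 CPM in the others, with 5 of 10 at 0, and fibroblast markers to 126 CPM in cluster 2 and 73.1 CPM in the others. The 6 cycling markers of Apoe KO summed to 53.4 CPM in cluster 2 and 8.27 CPM in the others. Mki67 was 5.18-fold (1.51 to 14.3) and Top2a 4.92-fold (1.82 to 11.5) higher there, on 5 and 7 UMIs in cluster 2. The cycling markers of DKO summed to 5.12 CPM in cluster 2 and 4.03 CPM in the others. In cluster 2 that sum rested on 2 UMIs of Mki67 and 1 of Top2a. Adipocyte markers went the other way, at 220 CPM in cluster 2 and 1564 CPM in the others of DKO and at 86.5 CPM in cluster 2 and 177 CPM in the others of Apoe KO. The Apoe KO values rest on Fabp4, with 34 UMIs in cluster 2 and 1373 in the others. Beside it only Adipoq was seen, with 1 UMI in the others. The part of all these markers in the gene differences was not tested.

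The direction of a gene in cluster 2 went with the length of its longest annotated transcript. Genes of at most 1 kb had a median log2 ratio of -0.33 in DKO and -0.61 in Apoe KO, and those over 8 kb had 0.14 in DKO and 0.37 in Apoe KO. The bins between them ran in order, at -0.21, -0.05 and 0.05 for 1 to 2, 2 to 4 and 4 to 8 kb in DKO and at -0.36, -0.06 and 0.20 in Apoe KO. Of the genes of at most 1 kb, 17.1% were called lower in DKO and 51.5% in Apoe KO, while of those over 8 kb 1.81% were lower in DKO and 1.62% in Apoe KO. Short genes were thus the ones that ran low in cluster 2. When the other SMC cells were weighted to the depth of cluster 2, an alternative chosen after the data were seen, the order held, with -0.39 for the shortest and 0.26 for the longest genes in DKO and -0.41 and 0.23 in Apoe KO. Cluster 4 showed little such order, with bin medians between -0.05 and -0.03 in DKO and between -0.13 and 0.18 in Apoe KO, and with depth weighting between -0.14 and 0.15 in DKO and between 0.02 and 0.06 in Apoe KO.

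**Figure D3:**
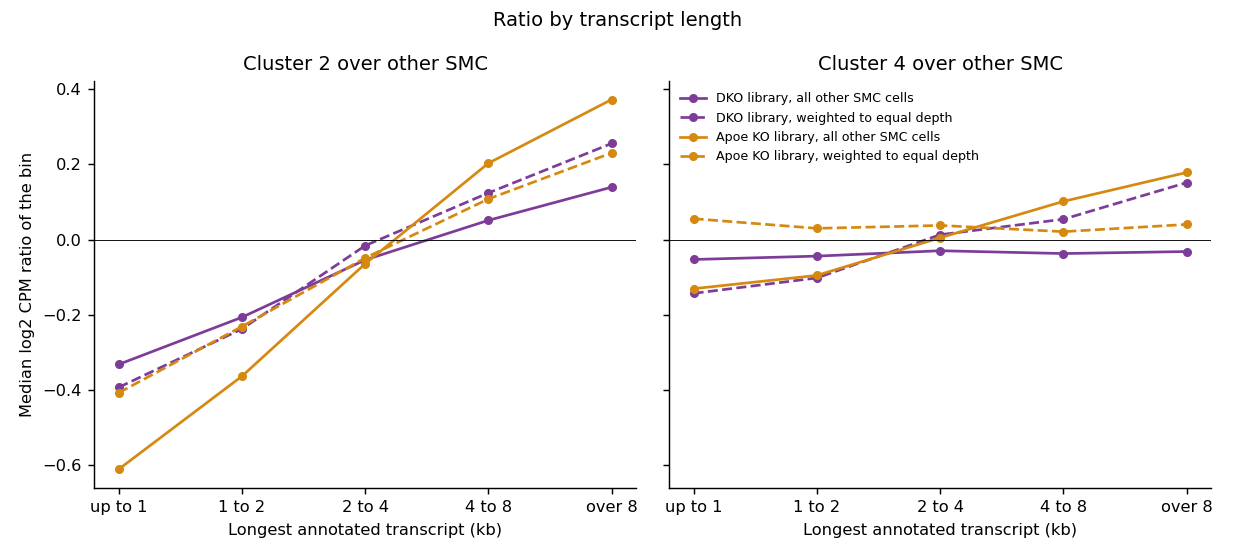
Median log2 CPM ratio of cluster 2 (left) and cluster 4 (right) over the other SMC cells in 5 bins of longest annotated transcript length (kb), in DKO and Apoe KO, against all other SMC cells (solid lines) and against those weighted to equal depth (dashed lines). In cluster 2 the median goes up with length in both libraries (-0.33 to 0.14 in DKO and -0.61 to 0.37 in Apoe KO), and in cluster 4 it stays between -0.14 and 0.18.

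Depth weighting ended the calls of Gm42418 in cluster 2 of DKO (1.19-fold), of AY036118 in both libraries (1.30-fold in DKO, 1.43-fold in Apoe KO) and of Ap3m1 in Apoe KO (1.14-fold), and it moved mt-Nd6 of Apoe KO to 4.35-fold and Sfrp2 there to 1.50-fold. With a denominator that leaves out the mitochondrial genes, Malat1 and Gm42418, the log2 ratio of every gene in cluster 2 was higher by 0.09 in DKO and 0.12 in Apoe KO, and the calls became 402 higher and 321 lower in DKO and 1296 higher and 873 lower in Apoe KO. Depth weighting gave 360 higher and 440 lower in DKO, so the balance of higher and lower calls in cluster 2 depends on the scaling. Thinning to 500 UMIs ended the calls of AY036118, Ap3m1, Gm42418, Sfrp2 (log2 0.16), Syn3 (log2 0.52) and Sync in DKO, and those of Ap3m1, Atp5e (log2 -0.49), Atp5k (log2 0.10), Fcgrt and Naa38 in Apoe KO.

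Cluster 4 had more of the ribosomal RNA-like transcripts, of Carmn and of Pnisr, and less of the immediate early genes, than the other SMC cells of its library. Those other SMC cells are the ones that cluster 2 was set against. In DKO 329 genes (5.57%) were called higher in cluster 4 and 727 (12.3%) lower, 17.9% of 5903. In Apoe KO 613 (8.34%) were higher and 580 (7.89%) lower, 16.2% of 7348. Of 5844 genes tested in both libraries, 43 (0.736%) were higher in both, 92 (1.57%) lower in both and 77 went opposite ways. The interval held 1 for 75.2% of the calls of cluster 4 in DKO and 63.7% of those in Apoe KO, and for 46.5% of the calls of cluster 2 in DKO and 53.0% of those in Apoe KO. Many single calls are therefore not separated from equal levels by their counts.

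Gm42418 had 36189 CPM in cluster 4 and 16269 CPM in the other SMC cells of DKO (2.22-fold, 2.18 to 2.27), and 16516 CPM in cluster 4 and 3574 CPM in the others of Apoe KO (4.62-fold, 4.51 to 4.74). AY036118 was 3.05-fold (2.83 to 3.29) higher in DKO and 4.31-fold (4.06 to 4.57) in Apoe KO, and Gm26917 2.38-fold in DKO and 3.34-fold in Apoe KO. AY036118 (chr17:39847113-39848035, minus strand, GRCm38) lies wholly within Gm42418 (chr17:39846958-39848788, plus strand), so the counts of this pair may share reads where strand was not used. Gm26917 lies before both at chr17:39843013-39846341 and overlaps neither. Lars2, the mitochondrial leucyl-tRNA synthetase on chromosome 9, had 1173 CPM in cluster 4 and 494 CPM in the others of DKO (2.37-fold, 2.10 to 2.67), and 414 CPM in cluster 4 and 66.3 CPM in the others of Apoe KO (6.24-fold, 5.28 to 7.37). By the list rule, 12.2% of 10208 genes were higher in cluster 4 of DKO and 16.3% lower, and in Apoe KO 15.0% of 11033 were higher and 11.8% lower. These 4 genes, which make up the ribosomal RNA-like list, were past 1.5-fold in both libraries, with a median log2 ratio of 1.25 in DKO and 2.16 in Apoe KO.

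Carmn had 110 CPM in cluster 4 and 45.2 CPM in the other SMC cells of DKO (2.44-fold, 1.61 to 3.59), and 76.2 CPM in cluster 4 and 31.3 CPM in the others of Apoe KO (2.44-fold, 1.68 to 3.45). In cluster 2 its ratio was 1.21 (0.806 to 1.76) in DKO and 1.22 (0.672 to 2.05) in Apoe KO, with 1 inside both intervals. Pnisr had 136 CPM in cluster 4 and 85.7 CPM in the others of DKO (1.59-fold, 1.10 to 2.23), and 163 CPM in cluster 4 and 84.5 CPM in the others of Apoe KO (1.93-fold, 1.50 to 2.43). Both genes were thus past the fold in cluster 4 and not in cluster 2, where Pnisr was 1.20-fold in DKO and 1.14-fold in Apoe KO. A further high gene was Tnfrsf11b, the decoy receptor osteoprotegerin, at 1.83-fold in DKO (1.25 to 2.59) and 2.47-fold in Apoe KO (1.58 to 3.72). Trp53inp1, Vps13b, Rraga, Col14a1 and Ulk4 lay between 1.56-fold and 1.97-fold. In DKO the intervals of Col14a1 (0.950 to 2.85) and Ulk4 (0.894 to 2.78) held 1, and Ulk4 and Vps13b overlap a gene of the opposite strand.

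With the other SMC cells weighted to the depth of cluster 4, Gm42418 came to 1.45-fold in DKO, under the fold, and 3.01-fold in Apoe KO, AY036118 to 1.73-fold and 2.03-fold, and Lars2 of Apoe KO to 4.08-fold, while the calls ended for Ulk4 in DKO (log2 -0.12) and Apoe KO (log2 0.18) and for Col14a1, Trp53inp1 and Vps13b in Apoe KO (log2 0.52, 0.47 and 0.58). Pnisr lost its call when each cell was thinned to 500 UMIs (log2 0.45 in DKO and 0.30 in Apoe KO) and in the mean of single-cell CPM (log2 0.54 in DKO and 0.58 in Apoe KO). Thinning also ended the calls of Rraga in both libraries (log2 0.35 in DKO and 0.48 in Apoe KO), of Trp53inp1 and Ulk4 in DKO (log2 0.47 and 0.11), and of mt-Nd6 (log2 0.39), Egr1 (log2 -0.55), Dnajb1 (log2 -0.58) and Hes1 (log2 0.10) in Apoe KO. Depth weighting left 419 calls in DKO and 726 in Apoe KO, and the denominator without the mitochondrial genes, Malat1 and Gm42418 gave 839 higher and 454 lower calls in Apoe KO.

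Of the 8 lowest genes of cluster 4, Egr1 and Zfp36 belong to the immediate early list, and Socs3, Gadd45b and Dnajb1 are known as rapidly induced genes. Socs3 had 47.8 CPM in cluster 4 and 120 CPM in the other SMC cells of DKO (0.400-fold, 0.211 to 0.689), and 26.8 CPM in cluster 4 and 66.4 CPM in the others of Apoe KO (0.403-fold, 0.213 to 0.696). Zfp36 had 114 CPM in cluster 4 and 229 CPM in the others of DKO (0.498-fold, 0.337 to 0.711), and 84.4 CPM in cluster 4 and 154 CPM in the others of Apoe KO (0.549-fold, 0.392 to 0.749). Egr1, an early growth response factor, had 989 CPM in cluster 4 and 1895 CPM in the others of DKO (0.522-fold, 0.460 to 0.589), and 1699 CPM in cluster 4 and 3007 CPM in the others of Apoe KO (0.565-fold, 0.526 to 0.606). The levels of these 3 genes differed between the libraries, and their ratios lay close together. Gadd45b, a stress-induced regulator of growth arrest, was 0.560-fold in DKO and 0.455-fold in Apoe KO, and Dnajb1, an Hsp40 chaperone, 0.474-fold in DKO and 0.453-fold in Apoe KO. Hes1, a Notch target, was 0.296-fold in DKO and 0.490-fold in Apoe KO. The imprinted RNA Meg3 was 0.498-fold in DKO and 0.421-fold in Apoe KO, and the ubiquitin ligase gene Mylip 0.495-fold in DKO and 0.546-fold in Apoe KO.

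Over the whole immediate early list, the median log2 ratio of cluster 4 was -0.55 in DKO, with 7 of 16 genes lower, and -0.64 in Apoe KO, with 10 of 16 lower, beside -0.01 in DKO and 0.04 in Apoe KO over all genes. None of the 16 was past 1.5-fold higher. Their summed level in DKO was 8054 CPM in cluster 4 and 11563 CPM in the other SMC cells, and in Apoe KO 8134 CPM in cluster 4 and 13286 CPM in the others. Dusp1, a phosphatase that ends MAP kinase signals, had 415 CPM in cluster 4 and 660 CPM in the others of DKO (0.630-fold), and 556 CPM in cluster 4 and 1055 CPM in the others of Apoe KO (0.527-fold). Fos, a subunit of AP-1, was 0.742-fold in DKO (0.682 to 0.805) and 0.565-fold in Apoe KO (0.528 to 0.603), and Atf3, a stress factor, 0.696-fold in DKO (0.580 to 0.828) and 0.453-fold in Apoe KO (0.401 to 0.509), so that both passed the fold in Apoe KO and not in DKO. Dusp1 in DKO fell short of the fold with depth weighting (log2 -0.58) and thinned (log2 -0.49), as did Fos in Apoe KO when thinned (log2 -0.55). In cluster 2 the same list had medians of -0.12 in DKO and -0.06 in Apoe KO, with none of 16 past the fold.

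The ribosomal and respiratory lists lay nearer to 0 in cluster 4 than in cluster 2. Ribosomal protein genes had -0.10 in DKO and -0.28 in Apoe KO with none of 79 past the fold, and oxidative phosphorylation genes -0.05 in DKO and -0.11 in Apoe KO. Contractile genes had 0.07 in DKO and -0.11 in Apoe KO, where Des was lower at 30.9 CPM in cluster 4 and 74.5 CPM in the others (0.414-fold, 0.230 to 0.689), a call that thinning turned (log2 0.43, on 5 UMIs in cluster 4). Nuclear long non-coding RNAs went both ways. In DKO, Carmn, Snhg14 and Peg13 of 12 were higher and Meg3, Rian and Dleu2 lower. In Apoe KO, Carmn, Snhg14 and Firre of 13 were higher and Meg3, Rian and Dleu2 lower. The interval held 1 in DKO for Snhg14 (0.76 to 6.35, on 5 UMIs in cluster 4), Peg13 (0.816 to 2.64) and Rian (0.124 to 1.21, on 4 UMIs). In Apoe KO it held 1 for Firre (0.674 to 3.80, on 7 UMIs). Splicing genes had medians of 0.07 in DKO and 0.19 in Apoe KO, with Pnisr and Arglu1 higher in both libraries and Snrnp70 and Luc7l2 also higher in Apoe KO, out of 37. The calls of Arglu1 in both libraries (1.25-fold in DKO and 1.43-fold in Apoe KO), and of Snrnp70 (1.29-fold) and Luc7l2 (1.25-fold), ended with depth weighting.

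Heavy-strand mitochondrial genes of cluster 4 summed to 42515 CPM, against 47883 CPM in the other SMC cells, in DKO, and to 74553 CPM, against 48994 CPM in the others, in Apoe KO, where 8 of 12 were past 1.5-fold higher. There the complex I genes mt-Nd3 and mt-Nd5 were 1.73-fold and 1.69-fold higher. With depth weighting the list median in Apoe KO was 0.06, and without it 0.64, and none of the 12 was past the fold (mt-Nd3 at 1.08-fold and mt-Nd5 at 1.12-fold). The light-strand gene mt-Nd6 was 2.21-fold (1.29 to 3.58) higher in cluster 4 of DKO and 3.24-fold (1.98 to 5.11) in Apoe KO, and with depth weighting 1.69-fold in DKO and 1.88-fold in Apoe KO. Malat1 of cluster 4 was 1.41-fold in DKO and 1.06-fold in Apoe KO, and depth weighting turned the ratio of Apoe KO to 0.884.

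Among markers of other cells in DKO, adipocyte markers summed to 346 CPM in cluster 4 and 1564 CPM in the other SMC cells. Fibroblast markers there summed to 125 CPM in cluster 4 and 73.1 CPM in the others, and macrophage markers to 11.03 CPM in cluster 4 and 14.2 CPM in the others, with 8 of 10 at 0. In Apoe KO fibroblast markers summed to 453 CPM in cluster 4 and 219 CPM in the others, chondrocyte-like markers to 502 CPM in cluster 4 and 263 CPM in the others, and macrophage markers to 177 CPM in cluster 4 and 129 CPM in the others. With depth weighting in Apoe KO, Dcn came to 1.19-fold, Lum to 1.09-fold and Col14a1 to 1.43-fold, and Col2a1 went from 3.22-fold to 1.72-fold. Chad of the chondrocyte-like list was 0.443-fold there without weighting, on 4 UMIs in cluster 4. In DKO depth weighting gave 0.610-fold for Lum, 1.41-fold for Dcn and 1.53-fold for Col14a1. The part of these markers of other cells in the differences was not tested.

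**Figure D4:**
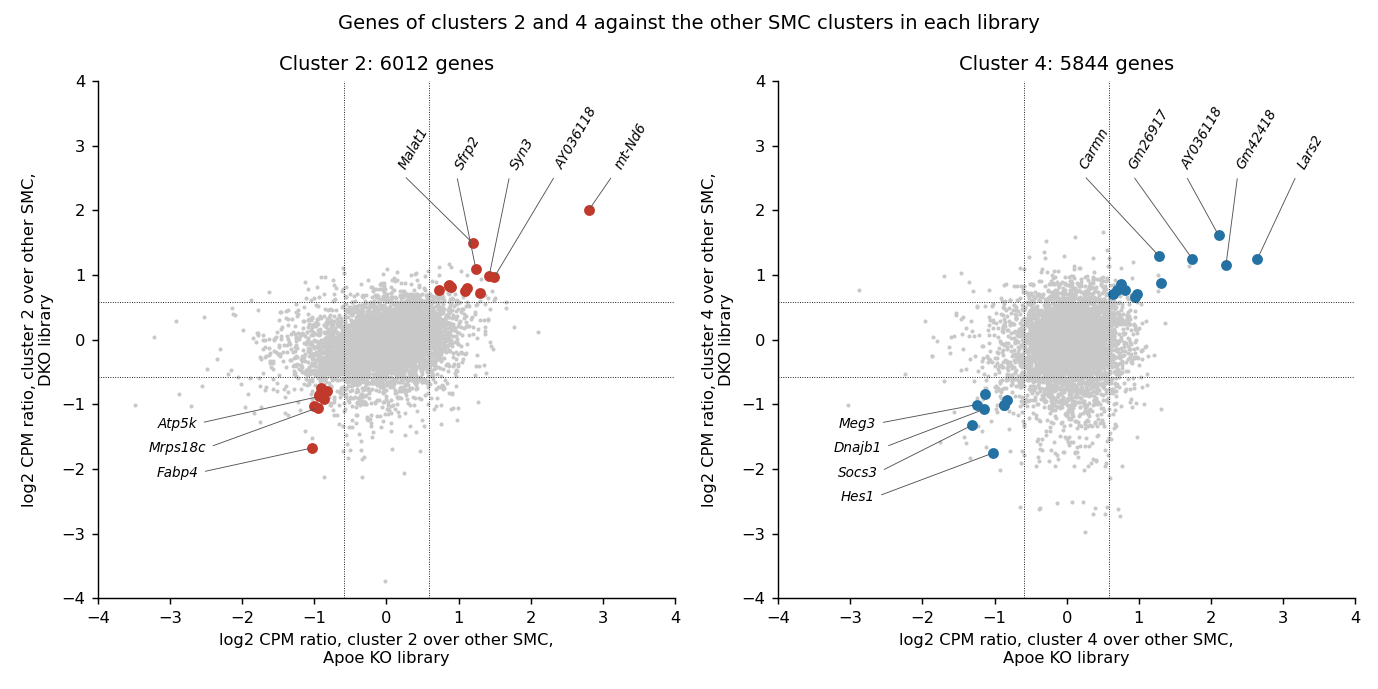
Log2 CPM ratio over the other SMC cells in DKO (vertical axis) and in Apoe KO (horizontal axis), for cluster 2 (left) and cluster 4 (right), 1 point per gene tested in both libraries, with named genes labelled. In cluster 2 Malat1 and mt-Nd6, and in cluster 4 Gm42418, AY036118, Lars2 and Carmn, are high in both libraries, and Socs3, Hes1 and Dnajb1 of cluster 4 are low in both.

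**Figure D5:**
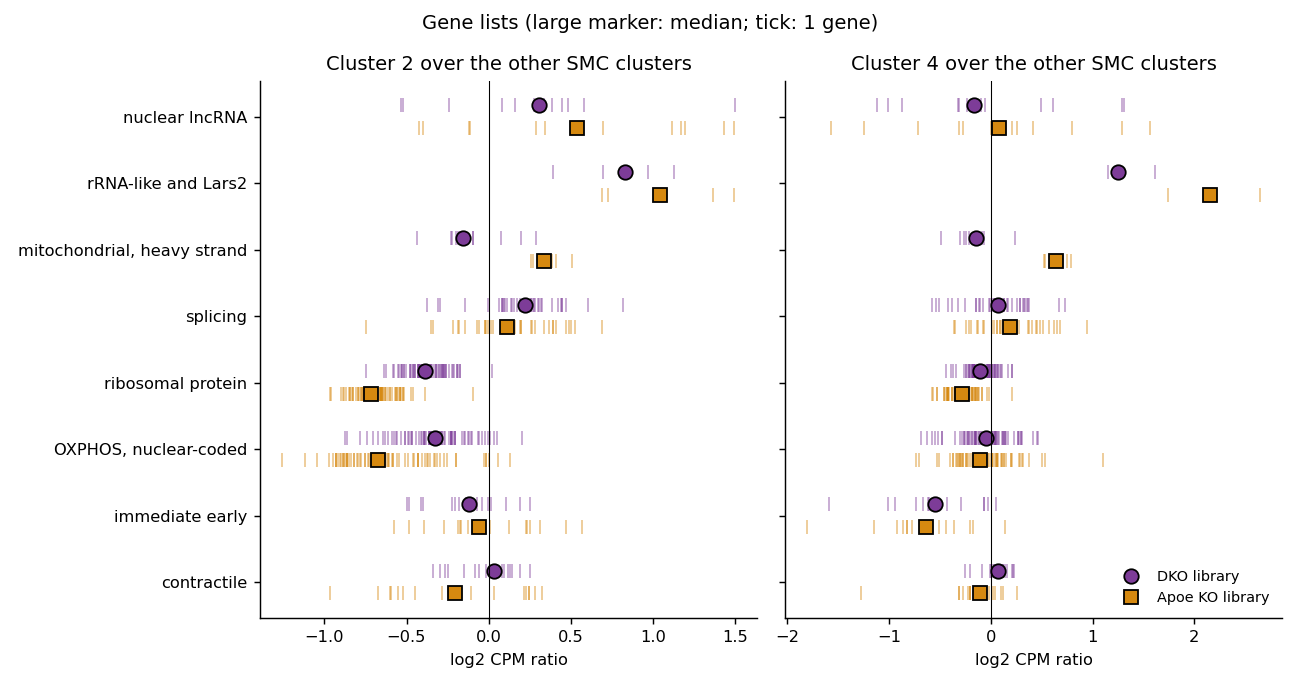
Log2 CPM ratio over the other SMC cells for each gene list, for cluster 2 (left) and cluster 4 (right), with the median as a large marker and each measured gene as a tick, in DKO and Apoe KO. Ribosomal protein genes are low in cluster 2 (-0.39 in DKO and -0.71 in Apoe KO), and immediate early genes are low in cluster 4 (-0.55 in DKO and -0.64 in Apoe KO).

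Set directly against each other, cluster 4 had about 0.5-fold the Malat1 of cluster 2 and more of the ribosomal RNA-like transcripts. In DKO 31 genes (2.38%) were called higher in cluster 4 and 55 (4.22%) lower, 6.6% of 1303. In Apoe KO 103 (7.5%) were higher and 53 (3.86%) lower, 11.4% of 1374. Without the mitochondrial genes, Malat1 and Gm42418 in the denominator the calls were 22 higher and 72 lower in DKO and 76 higher and 70 lower in Apoe KO. Of 1138 genes tested in both libraries, 11 (0.967%) were higher in both, 11 were lower in both and 0 went opposite ways. Malat1 of cluster 4 was 0.500-fold (0.489 to 0.510) that of cluster 2 in DKO and 0.464-fold (0.456 to 0.472) in Apoe KO. Neat1 had 706 CPM in cluster 4 and 1312 CPM in cluster 2 of DKO (0.538-fold), and 513 CPM in cluster 4 and 1381 CPM in cluster 2 of Apoe KO (0.371-fold). Both nuclear RNAs were thus lower in cluster 4 in both libraries. Lars2 had 1173 CPM in cluster 4 and 648 CPM in cluster 2 of DKO (1.81-fold), and 414 CPM in cluster 4 and 107 CPM in cluster 2 of Apoe KO (3.87-fold). Carmn was 2.02-fold (1.19 to 3.43) higher in cluster 4 of DKO and 2.00-fold (1.07 to 3.92) in Apoe KO, and mt-Nd6 0.553-fold in DKO and 0.466-fold in Apoe KO.

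The other high genes of cluster 4 against cluster 2 were Uqcr10, Ndufb11 and Atp5e of the respiratory chain, the nucleic acid binding protein gene Cnbp and Olfr1033, between 1.54-fold and 1.84-fold. In Apoe KO thinning ended the calls of Atp5e (log2 0.27), Ndufb11 (log2 0.47) and Olfr1033 (log2 0.49). In DKO the call of Atp5e ended with the denominator without the mitochondrial genes, Malat1 and Gm42418 (log2 0.58) and that of Cnbp in the mean of single-cell CPM (log2 0.58). Among the low ones were Egr1 and Fosb, immediate early factors, and Chka, choline kinase. Egr1 had 989 CPM in cluster 4 and 1758 CPM in cluster 2 of DKO, and 1699 CPM in cluster 4 and 3578 CPM in cluster 2 of Apoe KO. Fosb had 456 CPM in cluster 4 and 798 CPM in cluster 2 of DKO, and 663 CPM in cluster 4 and 1528 CPM in cluster 2 of Apoe KO. By the list rule, 9.59% of 5431 genes were higher in cluster 4 of DKO and 12.3% lower, and in Apoe KO 14.4% of 5562 were higher and 11.2% lower. Oxidative phosphorylation genes had a median of 0.27 in DKO with 9 of 74 higher, a share near that of all genes, and of 0.58 in Apoe KO with 34 of 73 higher, and 11 of 42 when thinned. Ribosomal protein genes had 0.29 in DKO with 4 of 79 higher and 0.40 in Apoe KO with 15 of 79 higher, and 7 with that denominator. Nuclear long non-coding RNAs had medians of -0.77 in DKO with 6 of 9 lower and -1.11 in Apoe KO with 7 of 11 lower. Contractile genes, at 0.09 in DKO and 0.03 in Apoe KO, stayed near the all-gene medians of 0.00 in DKO and 0.03 in Apoe KO.

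The study's own comparison sets DKO cells against Apoe KO cells, here within each cluster. With 1 library per genotype and unlike depths (median 726.5 UMIs in DKO and 2230 in Apoe KO cells of cluster 2, and 656 in DKO and 2254 in Apoe KO cells of cluster 4), genotype, library and depth cannot be told apart. In cluster 2, 199 genes (13.2%) were called higher in DKO and 186 (12.3%) lower, 25.5% of 1511. In cluster 4, 113 (9.78%) were higher and 171 (14.8%) lower, 24.6% of 1156. Malat1 was close between the libraries, at 0.880-fold in cluster 2 and 0.949-fold in cluster 4, whereas Gm42418 was 2.86-fold (2.75 to 2.96) higher in DKO in cluster 2 and 2.19-fold (2.13 to 2.26) in cluster 4. The other SMC cells also had more Gm42418 in DKO, at 16269 CPM against 3574 CPM in Apoe KO. Carmn, mt-Nd6 and Pnisr had ratios between 0.836 and 1.48, each with 1 inside its interval.

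Higher in the DKO cells of both clusters was Rpl29 of the large ribosomal subunit, with 486 CPM in DKO and 73.8 CPM in Apoe KO cells of cluster 2 (6.59-fold), and 629 CPM in DKO and 90.6 CPM in Apoe KO cells of cluster 4 (6.94-fold). Cdo1, cysteine dioxygenase, was 3.78-fold higher in cluster 2 and 5.20-fold in cluster 4, and Ier2, an immediate early gene, 3.99-fold in cluster 2 and 3.74-fold in cluster 4. In cluster 2 Lars2 was 6.07-fold higher, with 648 CPM in DKO and 107 CPM in Apoe KO cells. The other SMC cells also had more Lars2 in DKO, at 494 CPM against 66.3 CPM in Apoe KO. Hspb7, a small heat shock protein of muscle, was 5.53-fold higher in cluster 2, and Tcap, the titin cap, 4.21-fold. In cluster 4 the further genes were Ier3 (3.68-fold), Rps2 (1364 CPM in DKO and 371 CPM in Apoe KO cells, 3.68-fold) and Ppp1r15a, a stress-induced phosphatase subunit (3.38-fold). When each cell was thinned to 500 UMIs, the log2 ratios in cluster 2 were 3.34 for Rpl29, 2.99 for Cdo1 and 1.26 for Tcap, against 2.72, 1.92 and 2.08 without thinning. These directions were not limited to the 2 clusters. Other SMC cells, weighted to the depth of cluster 2, had 624 CPM of Rpl29 in DKO and 114 CPM in Apoe KO. In the same order they had 426 and 79.4 CPM of Cdo1, 529 and 123 CPM of Ier2, and 207 and 37.6 CPM of Hspb7. Tcap stood there at 264 and 101 CPM. Weighted to the depth of cluster 4, they had 920 and 297 CPM of Ier3 and 1613 and 405 CPM of Rps2. Ppp1r15a stood there at 338 and 180 CPM.

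Lower in the DKO cells of cluster 2 were Spp1, with 30.7 CPM in DKO and 229 CPM in Apoe KO cells (0.134-fold), and Lum, with 37.5 CPM in DKO and 267 CPM in Apoe KO cells (0.141-fold). The inducible chaperone Hspa1b had 275 CPM in DKO and 1778 CPM in Apoe KO cells there (0.154-fold), Hspa1a 375 CPM in DKO and 1470 CPM in Apoe KO cells (0.255-fold), and Dnajb1 was 0.237-fold. In cluster 4 the cartilage collagen Col2a1 had 0 UMIs in DKO and 146 UMIs (301 CPM) in Apoe KO cells, at least 27.3-fold lower against a floor of 3 UMIs over the cluster. Dcn, decorin, had 40.4 CPM in DKO and 216 CPM in Apoe KO cells of cluster 4 (0.187-fold), and Dnajb1 (0.205-fold), Sec62 (0.250-fold) and Ap3m1 (0.299-fold) followed. With cells under 10% mitochondrial UMIs alone, the log2 ratios were -2.77 for Col2a1, at the floor, and -1.53 for Dcn. Thinned, those of cluster 4 were -1.56 for Dcn, -3.30 for Dnajb1 and -3.28 for Sec62, against -2.42 for Dcn and -2.29 for Dnajb1 without thinning and the 0.250-fold of Sec62 given above. mt-Nd3 was low in both clusters, at 0.287-fold in cluster 2 and 0.249-fold in cluster 4. Several of these directions were not limited to the 2 clusters. In the other SMC cells Col2a1 had 1 UMI in DKO and 722 UMIs in Apoe KO. There Hspa1b had 254 CPM in DKO and 1530 CPM in Apoe KO, and Hspa1a 466 CPM in DKO and 1740 CPM in Apoe KO. Spp1 had 21.8 CPM in DKO and 72.2 CPM in Apoe KO in those cells.

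Chondrocyte-like, fibroblast and macrophage markers were lower in DKO too, whereas erythroid and adipocyte markers were higher. Summed chondrocyte-like markers stood at 98.9 CPM in DKO and 313 CPM in Apoe KO cells of cluster 2, and at 95.6 CPM in DKO and 502 CPM in Apoe KO cells of cluster 4. Fibroblast markers stood at 126 CPM in DKO and 534 CPM in Apoe KO cells of cluster 2, and at 125 CPM in DKO and 453 CPM in Apoe KO cells of cluster 4. Macrophage markers stood at 29.0 CPM in DKO and 343 CPM in Apoe KO cells of cluster 2, and at 11.03 CPM in DKO and 177 CPM in Apoe KO cells of cluster 4. The 4 erythroid markers summed to 90.4 CPM in DKO and 2.54 CPM in Apoe KO cells of cluster 2 (53 UMIs in DKO and 1 in Apoe KO), and to 58.8 CPM in DKO and 6.18 CPM in Apoe KO cells of cluster 4 (16 UMIs in DKO and 3 in Apoe KO). Adipocyte markers summed to 220 CPM in DKO and 86.5 CPM in Apoe KO cells of cluster 2, and to 346 CPM in DKO and 177 CPM in Apoe KO cells of cluster 4. The Apoe KO sums were Fabp4 alone, which also made 183 CPM of the DKO sum in cluster 2 and 265 CPM in cluster 4. In the other SMC cells the fibroblast, macrophage and adipocyte sums given above differed between the libraries in the same directions. Hbb-bs, an erythroid marker, had 35.2 CPM in DKO and 2.07 CPM in Apoe KO there. The part of all these markers in the differences between DKO and Apoe KO was not tested.

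By the list rule, 18.1% of 5903 genes were higher in DKO in cluster 2 and 16.1% lower, and in cluster 4 14.5% of 5112 were higher and 19.6% lower. ER stress genes were higher in DKO, with 5 of 11 past 1.5-fold and none lower in each cluster, and median log2 ratios of 0.36 in cluster 2 and 0.48 in cluster 4. Ddit3, which codes for the factor CHOP, was 3.55-fold higher in cluster 2 and 3.44-fold in cluster 4, and Pdia3, a protein disulfide isomerase, 2.42-fold in cluster 2 and 1.69-fold in cluster 4. The direction was not limited to the 2 clusters. In the other SMC cells Ddit3 had 81.8 CPM in DKO and 52.3 CPM in Apoe KO. Pdia3 had 446.5 CPM in DKO and 242 CPM in Apoe KO there, and Hspa5 1333 CPM and 817 CPM. Calr went the other way there, with 503 CPM in DKO and 707 CPM in Apoe KO. Heat shock genes went the other way, with a median of -0.60 in cluster 2 (7 of 13 lower, 1 higher) and -0.20 in cluster 4 (4 of 13 lower, 1 higher). Contractile genes differed little between the libraries, at 0.02 in cluster 2 with 2 of 18 higher and 0.08 in cluster 4 with 1 higher. Over all genes the median was 0.00 in cluster 2 and -0.06 in cluster 4.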

How the data were processed

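Single-cell 3′ tag libraries of digested aortas, 1 DKO and 1 Apoe KO, were analysed. The submitters' processing notes name Cell Ranger, Seurat and the mm10 build, with no version or annotation given in the sources used here. In the authors' deposited table each value counts the UMIs of a gene in a cell, and the sums equal the cell totals of their metadata. The authors also deposited the mitochondrial share of each cell as a fraction, and class and cluster labels as values of another kind. The cells had been filtered before deposit, with at least 500 UMIs and at most 20% mitochondrial UMIs. Of 10345 deposited entries, 4856 were Apoe KO and held 2428 barcodes in 2 identical copies, so each was counted once, over 14714 genes.

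For each population the UMIs of all its cells were added up and expressed per 1000000 (CPM). Ratios carry exact conditional binomial 95% intervals, and cell shares exact binomial ones. A ratio with a count of 0 was set against a floor of 3 UMIs. With 1 library per genotype no test was made, since cells are not replicates. Calls needed 1.5-fold either way and 100 UMIs, and list members 20 UMIs. Named genes were the 12 highest and 8 lowest past the fold in both libraries with at least 50 CPM on the higher side, 6 and 6 in the other comparisons, up to 4 members of a described list, and the 5 given markers. Acta2 and Myh11 were named as the usual identity genes of the class, and Neat1 and Kcnq1ot1 in DKO for comparison with Apoe KO, after their values were seen. The 2 clusters, the 32 lists and the tests were chosen with earlier results of these data known. Other settings tried were a minimum of 20 UMIs, a fold of 2, cells thinned to 500 UMIs, single-cell means, other denominators, cells by mitochondrial share or depth, and other weightings of the SMC clusters. Depth weighting (10 bins of UMIs per cell) and a minimum of 20 UMIs on the smaller side were added after the data were seen. Gene positions and transcript lengths are from GENCODE M21 (GRCm38), in which 14569 symbols matched, and promoters from RefSeq (GRCm38.p6). Python 3.11.15, numpy 2.4.6, pandas 2.3.3, scipy 1.17.1 and matplotlib 3.10.9 were used, and the scripts were tested on simulated data. Some genes that met the rule for named genes are not reported here.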

Additional observations from a re-analysis of the deposited data

How the results depend on the processing

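The limits are those of 1 library per genotype, shallow DKO cells and clusters formed on the same counts. No paired analysis was possible because each genotype has 1 library. Values are in the order DKO, Apoe KO unless 1 is named. A minimum of 20 UMIs gave 2343 and 3850 calls in cluster 2, 2907 and 2964 in cluster 4, 1191 and 1423 between the clusters, and 2018 (cluster 2) and 1739 (cluster 4) for DKO against Apoe KO. A fold of 2 gave 127 and 544, 275 and 242, 8 and 23, and 71 and 67 in the same order. Thinning to 500 UMIs gave 349 and 321, 371 and 126, 42 and 35, and 212 and 119. At least 20 UMIs on the smaller side left 310 and 559 in cluster 2 and 147 and 219 in cluster 4, and depth weighting 419 and 726 in cluster 4. Without the mitochondrial genes, Malat1 and Gm42418 in the denominator, median log2 ratios were -0.063 and 0.45 (heavy-strand mitochondrial) and 0.13 and -0.087 (contractile) in cluster 2, and 0.71 (heavy-strand, Apoe KO) in cluster 4. Thinned, they were 0.46 in cluster 2 and 1.06 in cluster 4 (ribosomal RNA-like, DKO), -0.33 and 0.20 in cluster 2 and -0.36 and 0.35 in cluster 4 (heavy-strand), -0.083 (contractile, cluster 2, Apoe KO), -0.72 (nuclear long non-coding, cluster 4, Apoe KO), and for DKO over Apoe KO in cluster 2 -0.87 (heavy-strand) and 1.17 (ER stress). With depth weighting they were 0.32 and 0.42 in cluster 2 and 0.92 and 1.42 in cluster 4 (ribosomal RNA-like), -0.27 and -0.15 in cluster 2 and -0.30 and 0.058 in cluster 4 (heavy-strand), 0.13 and -0.033 in cluster 2 and 0.22 and 0.046 in cluster 4 (contractile), and -0.47 in cluster 2 and -0.031 in cluster 4 (ribosomal protein, Apoe KO). In cells with at least 1000 UMIs, DKO shares of SMC cells were 10.5% for cluster 2 and 3.28% for cluster 4, and the median mitochondrial share of DKO cluster 4 was 4.20%. Among the ranked and marker genes past the fold, directions turned for Atp5k (log2 0.10) and Naa38 (1.14) in cluster 2, Hes1 (0.10) in cluster 4 and Pnisr between the clusters (-0.19), all thinned in Apoe KO, and for Ulk4 in cluster 4 of DKO (-0.12) with depth weighting. Thinning ended 26 and depth weighting 10 calls of these genes. Below the fold, thinning also turned Carmn in cluster 2 (-0.39) and Malat1 in cluster 4 (-0.17) of Apoe KO, and for DKO over Apoe KO Pnisr (-0.52) and mt-Nd6 (-0.10) in cluster 2 and Malat1 in cluster 4 (0.079). The cause was not tested.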

Other observations

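Regulators of smooth muscle identity were lower in DKO than in Apoe KO cells of both clusters. Of 13 measured, 7 were past 1.5-fold lower in cluster 2 and 6 in cluster 4, with none higher, where 16.1% of all genes in cluster 2 and 19.6% in cluster 4 were lower by the same rule, and median log2 ratios of -0.65 in cluster 2 and -0.49 in cluster 4. Myocd, the cofactor of serum response factor that drives contractile genes, had 208 CPM in DKO and 371 CPM in Apoe KO cells of cluster 2 (0.560-fold, 0.437 to 0.718), and 213 CPM in DKO and 329 CPM in Apoe KO cells of cluster 4 (0.647-fold, 0.471 to 0.879). Klf4, a factor of phenotypic switching, was 0.537-fold in cluster 2 (0.422 to 0.681) and 0.408-fold in cluster 4 (0.263 to 0.614). Of the 18 contractile genes, 2 were higher in the DKO cells of cluster 2 and 1 in those of cluster 4. Any link between their levels and that of Myocd was not tested, since genotype, library and depth cannot be told apart. Chromatin regulators had medians of -0.41 in cluster 2 (6 of 17 lower, 1 higher) and -0.67 in cluster 4 (10 of 17 lower), with Zfhx3, a zinc finger homeobox factor, at 0.555-fold in cluster 2 (0.452 to 0.680) and 0.535-fold in cluster 4 (0.409 to 0.693).

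Of 11 ion-handling genes measured, 4 were lower in DKO cells of cluster 2, and in cluster 4 5 were lower and 1 higher, beside 16.1% of all genes lower in cluster 2 and 19.6% in cluster 4. Atp2a2, the calcium pump of the sarcoplasmic reticulum, had 466 CPM in DKO and 811 CPM in Apoe KO cells of cluster 2 (0.574-fold), and 408 CPM in DKO and 665 CPM in Apoe KO cells of cluster 4 (0.614-fold). The calcium release channel Ryr2 was 0.473-fold in cluster 2 (0.320 to 0.695) and 0.459-fold in cluster 4 (0.257 to 0.779). Among matrix genes, elastin, Eln, had 943 CPM in DKO and 1549 CPM in Apoe KO cells of cluster 2 (0.609-fold), and 801 CPM in DKO and 1672 CPM in Apoe KO cells of cluster 4 (0.479-fold). Genotype, library and depth cannot be told apart in these values either. Against the other SMC cells, these lists had medians in cluster 2 and cluster 4 between -0.18 and 0.34, with at most 5 members of a list past the fold in 1 direction.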
